A study of Rattus norvegicus with 8 samples.

Results

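The 10 genes described here encode the transcription factors that set and hold the myeloid lineage, namely Irf4, Irf5, Irf8, Spi1, Cebpa, Cebpb, Cebpd, Runx1, Runx3 and Zeb2. They were taken by symbol from the 23487 genes of the count table, and each symbol matched 1 gene. The counts come from peritoneal macrophages of female Wistar rats, given as 8 weeks old when purchased. The rats had received 2 mg of multi-walled carbon nanotubes in the peritoneal cavity 15 days before sacrifice. Macrophages of 4 rats injected with MWCNT-XNRI-7 (CNT-7), the needle-like and mesotheliomagenic particle, were compared with those of 4 rats injected with tangled nanotubes (CNT-T), which do not cause mesothelioma. The cells had been sorted by flow cytometry as CD11b/c-high and His48-dim, and their polyadenylated RNA was sequenced. Each library was taken to come from 1 rat, because the labels give a particle and a number. Untreated rats were not analysed here, and every difference is therefore one between both particles and not one from the resting state.

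Macrophages, monocytes and dendritic cells share a small set of transcription factors whose levels and combinations shape each cell type. PU.1, the ETS factor encoded by Spi1, opens myeloid enhancers and works with C/EBP and RUNX factors, while IRF4 and IRF8 bind DNA poorly alone and are guided to their sites by PU.1 or by BATF proteins. IRF8 drives monocyte and type 1 dendritic cell development, IRF4 is tied to type 2 dendritic cells and alternatively activated macrophages, and in the peritoneal cavity IRF4 marks the small, MHC class II-high macrophages that come from monocytes.

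The library totals lay between 27195157 and 33732981 counts, and 12124 genes had enough counts to be tested. The 11 macrophage markers, among them Csf1r, Cd68, Adgre1, Mertk and the C1q genes, were all detected, and they summed to between 18641 and 24785 CPM (counts per 1000000 counts of the TMM-normalized library) with CNT-7, and to 27220 to 39368 CPM with CNT-T. In the test, 6 of these markers were lower with CNT-7 and 1, Gata6, was higher (of all genes tested, 27.9% were called, and 14% were lower). Gata6, named after its values were seen, had a log2 fold change of 0.30 (adjusted p = 0.042 in edgeR). Its call was lost without CNT-7 rat 5 or CNT-T rat 2. The part of these differences in the results below was not tested. Lyz2 alone made up between 65.4% and 82.6% of the marker sum. Because RNA was taken from whole sorted populations, fewer cells of a type and less RNA per cell cannot be told apart.

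The results turn on Irf4 and Irf8, and the 250 bases before their start sites are therefore shown, 5′ to 3′, from RefSeq on the assembly GRCr8. The window of Irf4 is chr17:33948731-33948980 on the minus strand, and that of Irf8 is chr19:65699034-65699283 on the plus strand. Capitals mark a TATA box (TATAAA) in both and the interferon-gamma-activated sequence (GAS, TTCNNNGAA) in Irf8.

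Irf4: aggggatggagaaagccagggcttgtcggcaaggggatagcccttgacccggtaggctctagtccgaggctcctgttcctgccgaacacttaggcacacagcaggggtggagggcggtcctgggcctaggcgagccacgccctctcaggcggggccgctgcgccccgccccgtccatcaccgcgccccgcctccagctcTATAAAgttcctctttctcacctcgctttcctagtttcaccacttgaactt

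Irf8: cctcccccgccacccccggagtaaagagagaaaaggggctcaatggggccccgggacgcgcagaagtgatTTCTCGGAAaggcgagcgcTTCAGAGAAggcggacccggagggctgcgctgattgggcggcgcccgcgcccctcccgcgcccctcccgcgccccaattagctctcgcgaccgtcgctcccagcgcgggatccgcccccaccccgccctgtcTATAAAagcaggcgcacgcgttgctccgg

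The TATA box began 51 bases before the start of Irf4 and 29 bases before that of Irf8. The Irf8 window held the GAS letters at 180 and 161 bases before the start, whereas the Irf4 window held none. Of all 33469 windows of the same length in the RefSeq table, 12.9% held TATAAA, 7.67% held at least 1 GAS match and 0.418% held at least 2. Both strands were searched. RefSeq windows were found for 8 of the 10 genes, with 2 for Runx3, and not for Spi1 and Cebpd. TATAAA also lay in the windows of Cebpa and Cebpb. The RUNX letters TGTGGT occurred at 2 places in 1 of the Runx3 windows (14.5% of all windows held at least 1 match and 1.44% at least 2). The same window held the E-box CACCTG read by ZEB factors (15.9%). Likewise, an interferon-stimulated response element lay in that of Zeb2 (3.41%). The other motifs searched, the ETS-IRF composite element (2.48%), the PU.1 site GAGGAAGT (2.04%) and the C/EBP site TTGCNNAA (9.22%), were in no window of the 8 genes. These matches are descriptions of letters, and no binding was measured.

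Among the lineage factors, Irf4 was much higher and Irf8 much lower after CNT-7 than after CNT-T, while Runx1, Spi1 and Zeb2 were more modestly higher. The change in both IRF genes exceeded 3-fold and had opposite signs, while the other 3 calls ran from 1.28-fold to 1.71-fold. All 10 genes passed the filter on low counts, and 5 were significant at an adjusted p-value under 0.10 in edgeR's quasi-likelihood test, against 27.9% of all 12124 genes tested. Of these 5, 4 were higher (background 13.9%) and 1 was lower after CNT-7 (background 14%). The same 5 genes were those whose groups did not overlap, which was the case for 24.9% of all genes. The median log2 fold change (CNT-7 relative to CNT-T) was 0.25 for the 10 genes and 0.0083 for all genes. The 10 genes were chosen with earlier results of these data known, so these comparisons with all genes are no independent evidence of an excess. Irf5, Cebpa, Cebpb, Cebpd and Runx3 did not pass the test. The 5 calls were also made in each of the 8 fits that left out 1 rat, and with a threshold of 0.05.

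**Figure D1:**
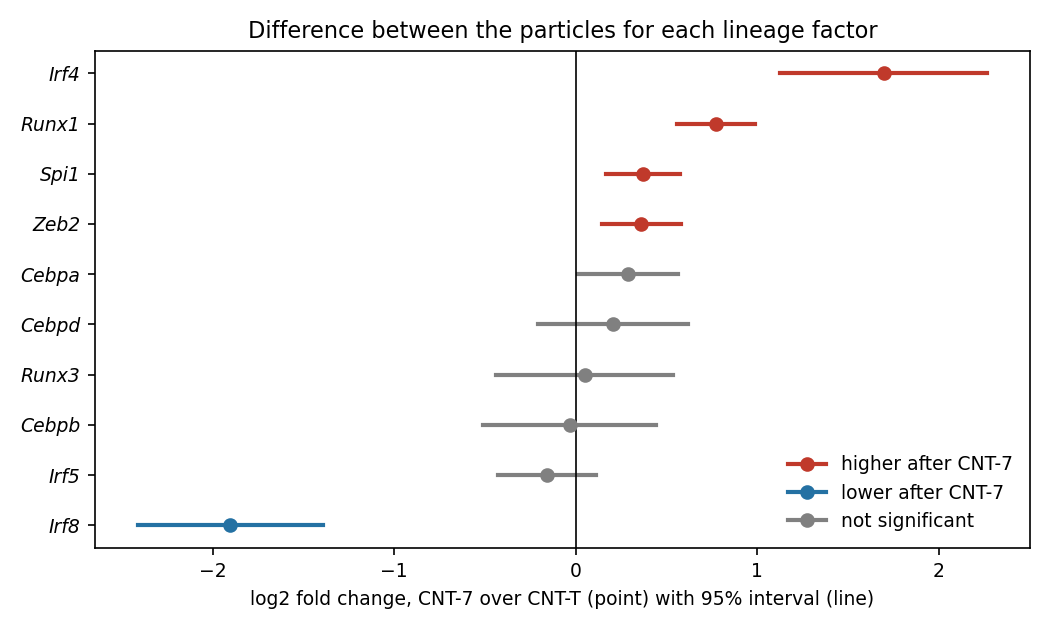
Log2 fold change (CNT-7 relative to CNT-T) for each of the 10 genes (point) with its 95% interval (line) from edgeR. Irf4 lies at 1.70 and Irf8 at -1.90, and the intervals of 4 of the 5 genes in grey include 0, that of Cebpa reaching down to 0.015.

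Irf4 (ENSRNOG00000061070) was the most increased of these factors. The level was 69.7, 47.1, 37.4 and 52.5 CPM in CNT-7 rats 3, 5, 10 and 11, and 20.9, 16.1, 17.7 and 9.13 CPM in CNT-T rats 1, 2, 12 and 13. The lowest CNT-7 rat thus stood well above the highest CNT-T rat. The means were 51.7 ± 13.5 CPM (SD, n = 4) and 15.9 ± 4.96 CPM (SD, n = 4), a log2 fold change of 1.70 (standard error 0.25, 95% interval 1.12 to 2.27, adjusted p = 0.0020). Of all genes tested, 97.4% had a lower log2 fold change.

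Irf8 (ENSRNOG00000017869) went the other way. It had 20.9, 23.4, 17.5 and 35.4 CPM in CNT-7 rats 3, 5, 10 and 11, and 122.7, 80.1, 75.5 and 85.2 CPM in CNT-T rats 1, 2, 12 and 13. The highest CNT-7 rat, rat 11, remained below every CNT-T rat. The means were 24.3 ± 7.77 CPM (SD, n = 4) and 90.9 ± 21.6 CPM (SD, n = 4), and the log2 fold change was -1.90 (standard error 0.23, 95% interval -2.41 to -1.39, adjusted p = 0.00072). This was a 3.74-fold lower level, and 0.569% of all genes had a log2 fold change below it.

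Irf5, the IRF of inflammatory cytokine induction in macrophages, did not follow either of them. Its level was 147.7, 132.8, 110.6 and 129.2 CPM in CNT-7 rats 3, 5, 10 and 11, and 174.3, 144.5, 140.2 and 122.01 CPM in CNT-T rats 1, 2, 12 and 13. The groups overlapped, and the log2 fold change of -0.16 had a 95% interval of -0.43 to 0.11 (adjusted p = 0.40).

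**Figure D2:**
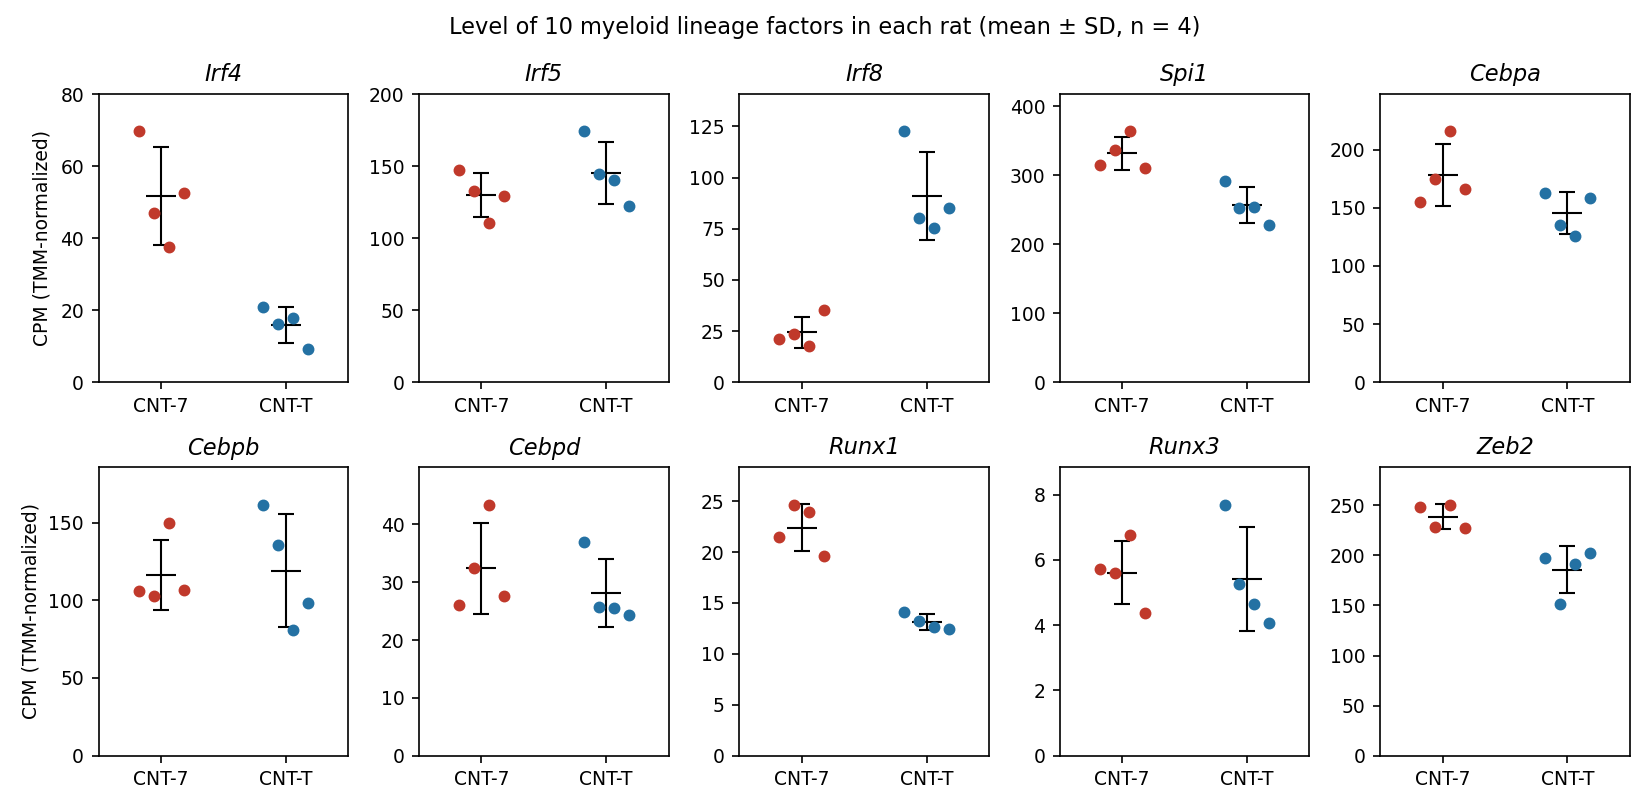
CPM of each gene in each rat (points, 4 per particle), with the mean and SD as black bars and each axis starting at 0. Irf4, Spi1, Runx1 and Zeb2 have all CNT-7 rats above all CNT-T rats, Irf8 has all CNT-7 rats below them, and the other 5 genes overlap.

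A ratio of counts within 1 library is free of the scaling between libraries, and its change between rats is free of gene length. The count ratio of Irf4 to Irf8 was 3.34, 2.01, 2.13 and 1.48 in CNT-7 rats 3, 5, 10 and 11, and 0.17, 0.20, 0.23 and 0.11 in CNT-T rats 1, 2, 12 and 13. The mean ratio was 12.6-fold higher after CNT-7. The ratio of Irf5 to Irf8 was between 3.65 and 7.07 after CNT-7 and between 1.42 and 1.86 after CNT-T, also without overlap. The ratio of Runx3 to Runx1 was lower in the CNT-7 rats, between 0.22 and 0.28 against 0.33 to 0.54. The ratios of Cebpb to Cebpa, Cebpb to Cebpd and Spi1 to Cebpa overlapped between the particles. These ratios were chosen with earlier results of these data known, and no test was made of them.

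**Figure D3:**
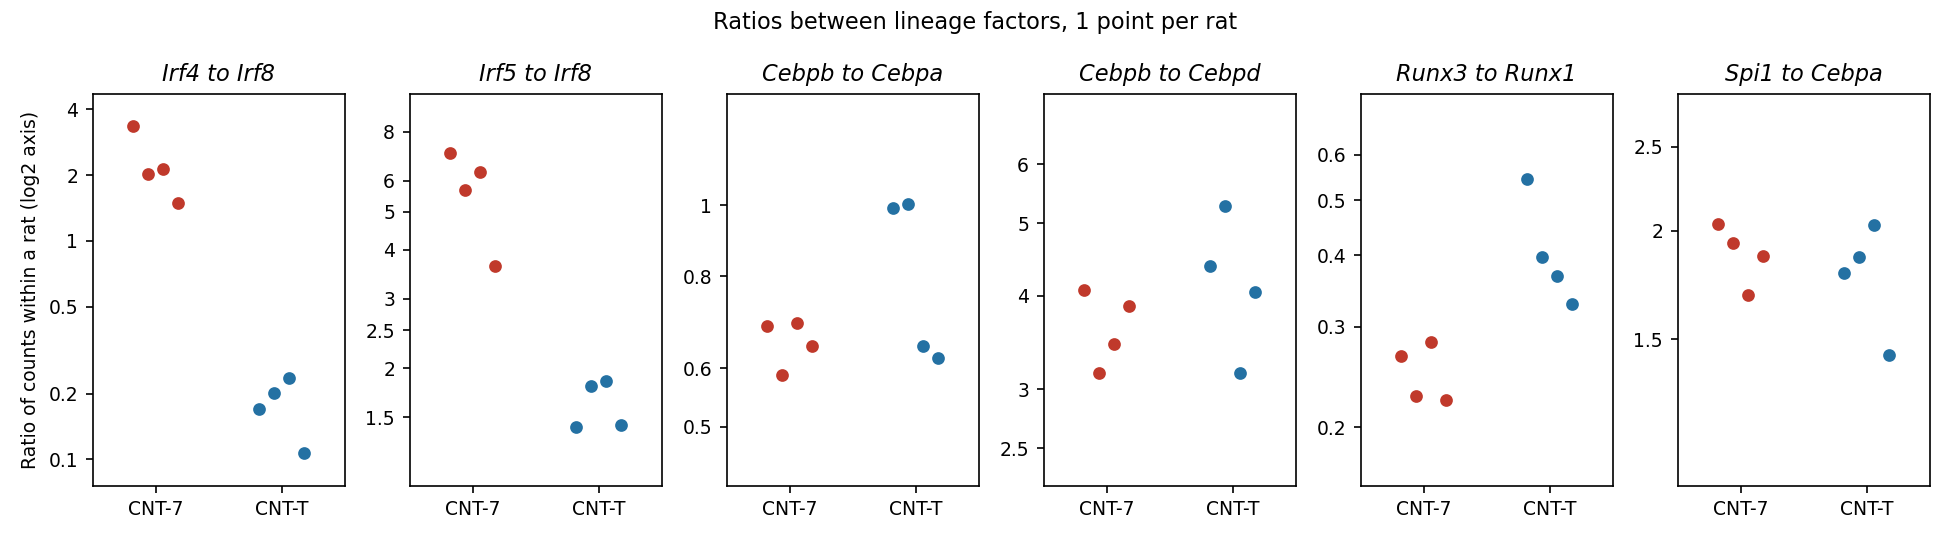
Ratio of the counts of 2 genes within each rat, on a log2 axis, with 1 point per rat. The Irf4 to Irf8 ratio is at least 1.48 after CNT-7 and at most 0.23 after CNT-T, while the ratios of the C/EBP genes overlap.

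Spi1, which encodes PU.1, was 1.29-fold higher after CNT-7. It had 314.8, 337.4, 364.1 and 311.3 CPM in CNT-7 rats 3, 5, 10 and 11, and 291.2, 252.1, 254.6 and 228.1 CPM in CNT-T rats 1, 2, 12 and 13. The groups were close but did not overlap. The means were 331.9 ± 24.4 CPM (SD, n = 4) and 256.5 ± 26.01 CPM (SD, n = 4), a log2 fold change of 0.37 (standard error 0.091, 95% interval 0.17 to 0.57, adjusted p = 0.018). Its count ratio to Cebpa ranged from 1.69 to 2.03 with CNT-7 and from 1.44 to 2.03 with CNT-T.

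The C/EBP genes did not differ significantly between the particles. Cebpa, the factor that commits progenitors to the granulocyte and monocyte lineage, had 154.7, 174.5, 215.97 and 166.3 CPM in CNT-7 rats 3, 5, 10 and 11, and 162.8, 135.3, 125.3 and 158.6 CPM in CNT-T rats 1, 2, 12 and 13. Its log2 fold change was 0.29 (95% interval 0.015 to 0.56, adjusted p = 0.13 in edgeR), and DESeq2 placed it just under the threshold with an adjusted p = 0.097. Over all the alternatives, its adjusted p-value lay between 0.097 and 0.30.

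Cebpb, which serves inflammatory and large peritoneal macrophages, had 106.1, 102.5, 149.5 and 106.9 CPM in CNT-7 rats 3, 5, 10 and 11, and 161.5, 135.7, 80.6 and 98.2 CPM in CNT-T rats 1, 2, 12 and 13. Its spread within the CNT-T group, a coefficient of variation of 30.6%, was wide, and its log2 fold change was -0.034 (95% interval -0.51 to 0.44, adjusted p = 0.93). Cebpd, an early response member of the family, had 26.1, 32.5, 43.4 and 27.5 CPM in CNT-7 rats 3, 5, 10 and 11, and 36.9, 25.7, 25.5 and 24.3 CPM in CNT-T rats 1, 2, 12 and 13. Its log2 fold change was 0.20 (95% interval -0.21 to 0.62, adjusted p = 0.49). For both genes, the difference between particles lay within the spread between rats.

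The labels number the libraries, read here as rats, and do not say what the numbers stand for. Each particle has rats with low numbers (CNT-7 rats 3 and 5, CNT-T rats 1 and 2) and high numbers (CNT-7 rats 10 and 11, CNT-T rats 12 and 13). Cebpb was lower after CNT-7 by 0.50 in mean log2 CPM among the low numbers and higher by 0.51 among the high numbers. Its groups did not overlap in either range, but 2 rats against 2 often separate by chance. The share of all genes that separate in this way was not computed. For Cebpb, CNT-T rats 1 and 2 both stood above CNT-T rats 12 and 13. Cebpd differed by -0.082 and 0.47, and Runx3 by -0.17 and 0.32, in the low and high ranges. The differences of the 5 significant genes had the same sign in both ranges, for example 1.64 and 1.79 for Irf4, and -2.16 and -1.68 for Irf8. Since their groups did not overlap over all rats, any such split must keep the sign. This sameness therefore adds no support. With only 2 rats per particle in each range, the difference between the ranges was not tested.

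**Figure D4:**
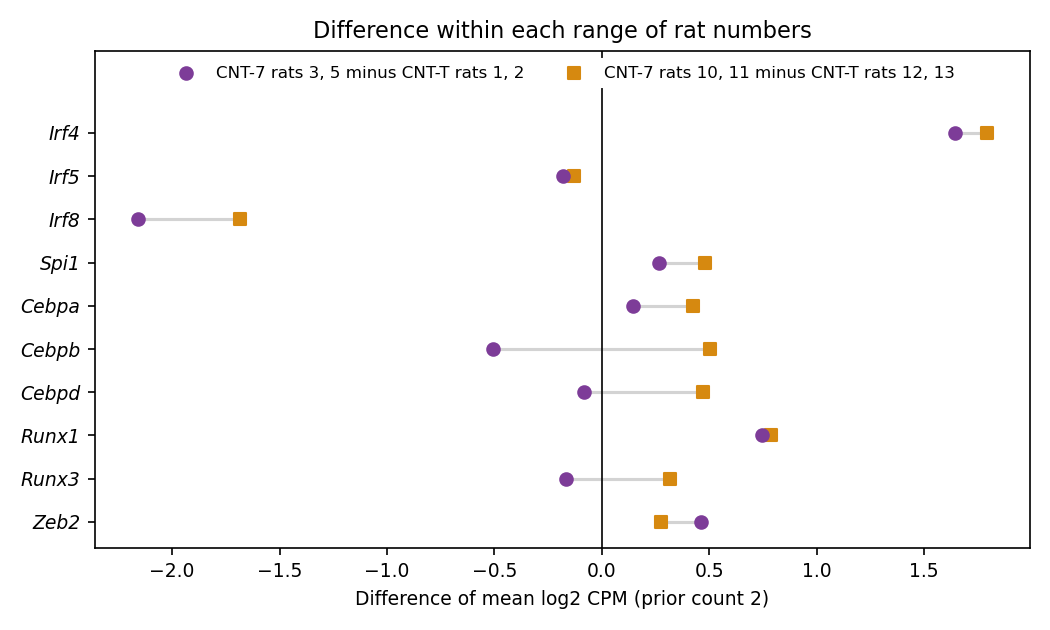
Difference of mean log2 CPM, CNT-7 minus CNT-T, among the rats with low numbers (circles) and among those with high numbers (squares). Cebpb lies on opposite sides of 0 in the 2 ranges, at -0.50 and 0.51. Irf4, Irf8, Spi1, Runx1 and Zeb2 keep their side, as genes without overlap over all rats must.

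Runx1, the core binding factor of blood cell development, was 1.71-fold higher after CNT-7. Its level was 21.5, 24.7, 23.9 and 19.6 CPM in CNT-7 rats 3, 5, 10 and 11, and 14.1, 13.2, 12.6 and 12.4 CPM in CNT-T rats 1, 2, 12 and 13. The CNT-T rats lay within a narrow band below all CNT-7 rats. The means were 22.4 ± 2.31 CPM (SD, n = 4) and 13.1 ± 0.78 CPM (SD, n = 4), a log2 fold change of 0.77 (standard error 0.096, 95% interval 0.56 to 0.99, adjusted p = 0.00084).

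Runx3, its relative in T cells, NK cells and some dendritic cells, had low counts in every rat. It had 5.72, 5.59, 6.75 and 4.38 CPM in CNT-7 rats 3, 5, 10 and 11, and 7.69, 5.26, 4.65 and 4.08 CPM in CNT-T rats 1, 2, 12 and 13. The groups overlapped throughout, and the log2 fold change was 0.049 (95% interval -0.44 to 0.53, adjusted p = 0.90).

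Zeb2, a repressor that preserves the identity of monocytes and tissue macrophages, was 1.28-fold higher after CNT-7. It had 248.1, 228.5, 250.7 and 227.0 CPM in CNT-7 rats 3, 5, 10 and 11, and 197.02, 151.5, 191.6 and 202.7 CPM in CNT-T rats 1, 2, 12 and 13. The groups did not overlap, and CNT-T rat 2 was the lowest of the 8. The means were 238.6 ± 12.5 CPM (SD, n = 4) and 185.7 ± 23.2 CPM (SD, n = 4), a log2 fold change of 0.36 (standard error 0.098, 95% interval 0.14 to 0.58, adjusted p = 0.027).

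Relatives, partners and targets of the lineage factors were examined next, in lists chosen with earlier results of these data known. Their shares of calls are therefore no independent evidence of an excess. None of the 5 tested genes among the other IRF genes was significant in edgeR or DESeq2, although 1, Irf2, had an unadjusted p-value under 0.05 in edgeR and was called lower without CNT-7 rat 3 or CNT-T rat 13. Their median log2 fold change was -0.082. Among the BATF partners of IRF4 and IRF8, Batf and Batf2 did not pass the test and Batf3 rose. Batf3 had 8.87, 7.50, 8.31 and 7.82 CPM in CNT-7 rats 3, 5, 10 and 11 against 7.30, 4.64, 3.92 and 2.97 CPM in CNT-T rats 1, 2, 12 and 13 (log2 fold change 0.78, adjusted p = 0.046). Its adjusted p-value was 0.104, 0.103 and 0.122, above the threshold, without CNT-7 rat 3, CNT-T rat 2 or CNT-T rat 12. Batf was called higher without CNT-7 rat 3, and Batf2 lower without CNT-7 rat 11.

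Of the other ETS factors, 7 of 8 were tested and 2 were lower after CNT-7. This was 28.6% of the list, near the 27.9% of all genes, and it is no result about the list. Fli1, an ETS factor of blood and vessel cells, fell from 129.7 to 97.5 CPM without overlap (log2 fold change -0.41, adjusted p = 0.0047). Spic, the PU.1 relative of red pulp macrophages, had 0.87 to 2.10 CPM with CNT-7, compared with 1.92 to 3.92 CPM with CNT-T (log2 fold change -1.01, adjusted p = 0.060). The call of Spic was lost in 5 of the 8 fits that left out 1 rat, namely those without CNT-7 rats 3, 5 or 10 or CNT-T rats 12 or 13. No other C/EBP gene or C/EBP adaptor was significant among 4 tested in edgeR without a block, with 1, Cebpe, at an unadjusted p-value under 0.05. Cebpe was called higher with the number range as a block (adjusted p = 0.040 in edgeR), without CNT-T rat 2 (0.075) and by DESeq2 (0.099). Irf2 and Cebpe were named after their values were seen. Among Runx2, Cbfb and Cbfa2t3, 0 were called in edgeR or DESeq2 and 0 had an unadjusted p-value under 0.05. Cbfb, the obligate partner of RUNX proteins, had a log2 fold change of 0.081 (adjusted p = 0.45). Zeb1 was below the filter, and it was called higher when no filter was used (adjusted p = 0.059).

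Of 19 other regulators of myeloid cells, 17 were tested, 7 were higher and 2 lower after CNT-7 (52.9%, against 27.9% of all genes), with a median log2 fold change of 0.33. The largest rises were those of Egr2, an early growth response factor of monocyte-derived macrophages, and Nfil3, a bZIP factor of dendritic and lymphoid cell development. Egr2 rose from 1.99 to 5.98 CPM (log2 fold change 1.59, adjusted p = 0.0024) and Nfil3 from 25.2 to 62.5 CPM (log2 fold change 1.31, adjusted p = 0.0011). Maf, a bZIP factor of macrophages, fell from 160.6 to 118.2 CPM (log2 fold change -0.44, adjusted p = 0.019). Id2, an inhibitor of E proteins, fell from 331.4 to 198.1 CPM (log2 fold change -0.74, adjusted p = 0.0034). Nfil3 and Id2 were also the 2 tested genes of a list drawn up as repressed by ZEB2. The place of Nfil3 on that list was not checked, so their opposite directions are no result about ZEB2.

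Of 21 PU.1 target genes, 20 were tested, with 4 higher and 4 lower after CNT-7 (40%, against 27.9% of all genes) and a median log2 fold change of 0.080. Only 2 of the lower calls were left in 6 of the 8 fits that omitted 1 rat, those without CNT-7 rats 3, 5 or 10 or CNT-T rats 1, 2 or 12, and at an adjusted p-value under 0.05. Cd14, the lipopolysaccharide co-receptor, rose (log2 fold change 0.46, adjusted p = 0.0071), as did Ncf4, a subunit of the phagocyte oxidase (0.34, adjusted p = 0.019). Fcgr1a, the high-affinity IgG receptor, fell (-0.54, adjusted p = 0.011). Cd68 also fell (-0.34, adjusted p = 0.071), with overlap between the groups and with the call lost in 6 of the 8 fits that left out 1 rat, those without CNT-7 rat 11 or CNT-T rat 13 being the exceptions. Csf1r, the M-CSF receptor and a target of both PU.1 and RUNX1, had 1131 to 1297 CPM with CNT-7, compared with 1359 to 1691 CPM with CNT-T, and it was lower (log2 fold change -0.33, adjusted p = 0.027). Spi1 and Runx1 themselves were higher.

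The list of IRF4 targets held 7 genes, of which 5 were tested and all 5 were higher after CNT-7 (13.9% of all genes were), and their log2 fold changes had a median of 3.20. With at least 10 counts asked for in every rat, 3 of them were left, since Ccl22 and Ciita were not tested. These genes were listed with earlier results of these data known, so their number is no independent evidence of direction. Ccl22, a chemokine for CCR4-bearing T cells, had 12.9, 8.61, 7.73 and 0.94 CPM in CNT-7 rats 3, 5, 10 and 11, and at most 0.33 CPM in the CNT-T rats (log2 fold change 5.67, adjusted p = 0.0033). Ccl17, its close relative, had 33.8, 11.5, 20.4 and 9.09 CPM in CNT-7 rats 3, 5, 10 and 11, and between 0.79 and 2.81 CPM with CNT-T (a log2 fold change of 3.52, adjusted p = 0.0015). Both chemokines were highest in CNT-7 rat 3 and lowest in CNT-7 rat 11, which had the highest and the second highest Irf4 of the group. Their order thus did not follow that of Irf4, whereas that of Ciita did. A link between these orders and Irf4 was not tested. Arg1, which encodes arginase, had 5.45, 5.16, 34.5 and 11.5 CPM in CNT-7 rats 3, 5, 10 and 11 against 0.86 to 2.90 CPM with CNT-T (a log2 fold change of 3.20, adjusted p = 0.0096), and without CNT-7 rat 10 its log2 fold change was 2.25. Ciita (2.94) and Clec10a (0.85), named after their values were seen, were the other tested genes. Ciita had 20.1, 10.3, 7.94 and 11.9 CPM in CNT-7 rats 3, 5, 10 and 11, the order of Irf4. The orders of Arg1 and Clec10a were not that of Irf4. Prdm1 and Retnla, also named afterwards, were below the filter. Prdm1 reached at most 0.54 CPM with CNT-7 and 0.36 CPM with CNT-T, and Retnla 0.13 and 0.098 CPM. Without CNT-T rat 2 the log2 fold changes of Ccl22 and Ciita were 6.51 and 3.76.

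Of 7 IRF8 targets, 4 were tested, and 1 was higher and 1 lower (13.9% and 14% of all genes were), with a median log2 fold change of -0.035. With so few genes tested, these counts are no result about the list. Klf4, which acts below IRF8 in monocytes, rose from 217.8 to 305.4 CPM (log2 fold change 0.49, adjusted p = 0.0067). Il18 fell from 233.1 to 187.7 CPM with overlap (log2 fold change -0.31, adjusted p = 0.066), a call that was lost without CNT-7 rats 3, 5 or 11 or CNT-T rats 12 or 13. Il12b, a classical target of IRF5 and IRF8 that was named after its values were seen, had no counts in any rat. Of 5 IRF5 targets, 2 were tested and 1 was lower (14% of all genes were). Il23a, named after its values were seen, was lower after CNT-7, at 0.40 against 1.32 CPM (log2 fold change -1.71, adjusted p = 0.012). Tnf had a log2 fold change of -0.46 (adjusted p = 0.28), and it was called lower without CNT-7 rat 5. Il6, also named afterwards, was below the filter, at 0.29 to 0.43 CPM with CNT-7 and at most 0.11 CPM with CNT-T, and it was called higher with no filter (adjusted p = 0.028) and in the 5 fits without CNT-7 rat 11 or any 1 CNT-T rat. Of 12 C/EBP targets, 6 were tested and 2, Arg1 and Cd14, were higher (33.3%, where 13.9% of all genes were higher). The count was 4 without CNT-T rat 1 or CNT-T rat 2, and 3 with the number range as a block, with DESeq2 or with no filter. Of 4 RUNX targets, 2 were tested and 1, Csf1r, was lower (14% of all genes were). The other, Itgal, had a log2 fold change of 0.61 (adjusted p = 0.13 in edgeR), and it was called higher by DESeq2 (0.070) and without CNT-7 rat 11 (0.051).

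**Figure D5:**
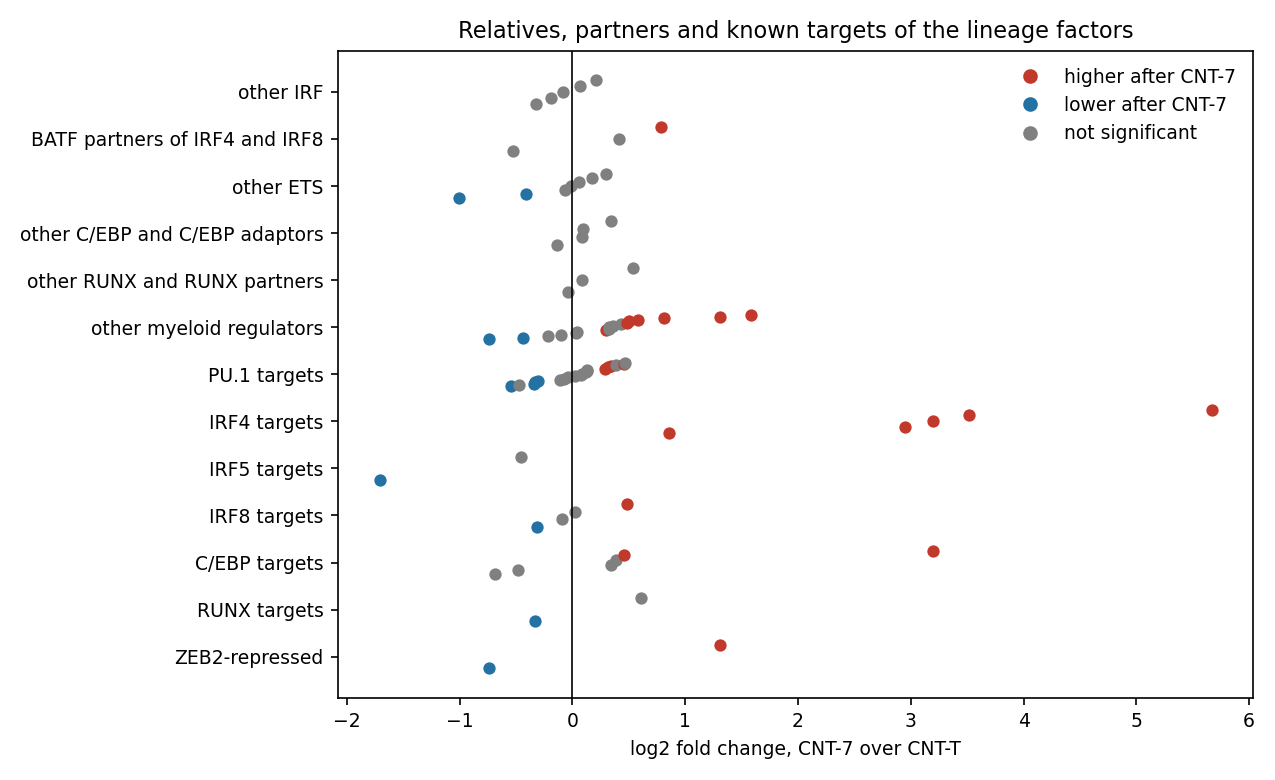
Log2 fold change (CNT-7 relative to CNT-T) for each tested gene (point) of the lists of relatives, partners, regulators and targets, coloured by the edgeR call at an adjusted p-value under 0.10. All 5 tested IRF4 targets lie to the right of 0, while the 20 PU.1 targets are spread around it.

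Irf4, Irf8, Spi1 and Runx3 are also expressed by dendritic cells or lymphocytes. Of the 6 markers of conventional dendritic cells, 4 were tested and 3 were higher after CNT-7 (13.9% of all genes were). These were Batf3, Ccr7 and Clec9a, named after their values were seen. The other tested marker, Zbtb46, also named afterwards, did not pass the test (log2 fold change -0.22, adjusted p = 0.65 in edgeR). The list summed to 13.4 to 19.1 CPM with CNT-7, compared with 7.34 to 15.7 CPM with CNT-T. Batf3 made up 39.2% to 58.2% of it, and Flt3 and Xcr1 were below the filter. Ccr7 ranged from 0.40 to 3.15 CPM with CNT-7 and reached at most 0.27 CPM with CNT-T. Markers of B cells summed to 0.18 to 3.05 CPM with CNT-7, compared with 0.18 to 0.62 CPM with CNT-T, with 0 of the 5 analysed passing the filter. Markers of T and NK cells summed to between 6.59 and 14.7 CPM and between 5.65 and 6.36 CPM, and Cd2, named after its values were seen, was higher with CNT-7 among 4 tested. Of the plasmacytoid dendritic cell list, Tcf4, named after its values were seen, was higher and Siglech was below the filter, and Bst2 made up at least 95.8% of its sum, which was 685.0 to 963.6 CPM after CNT-7 and 575.8 to 854.2 CPM after CNT-T. Markers of plasma cells summed to at most 0.58 CPM in any rat. The part of these cells in the rise of Irf4 and in the fall of Irf8 was not tested.

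Monocyte markers summed to 2634 to 3257 CPM with CNT-7, compared with 3556 to 3594 CPM with CNT-T. Of 4 tested, 1 was higher and 2 were lower (13.9% and 14% of all genes were). Neutrophil markers summed to between 88.6 and 109.8 CPM and between 69.6 and 112.5 CPM, of which Cebpe made up 39.5% to 65.5%, and Mpo had no counts. Of 5 tested, 1 was lower with CNT-7 (14% of all genes were), namely S100a8, named after its values were seen (log2 fold change -1.46, adjusted p = 0.016). Eosinophil markers reached at most 9.33 CPM in a CNT-7 rat and 0.36 CPM in a CNT-T rat, mast cell markers 1.52 and 2.04 CPM, and mesothelial markers 0.30 and 0.13 CPM.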

How the data were processed

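RNA of sorted peritoneal macrophages was sequenced by the authors from 4 rats per particle. The authors quantified reads with Salmon (version not given in the sources used here) on Ensembl cDNA of Rnor_6.0 and deposited estimated counts per gene through tximeta as whole numbers, without normalization. Estimated counts divide reads between similar transcripts.

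The deposited counts were tested in edgeR 4.0.16 (quasi-likelihood F-test, R 4.3.3) over all 12124 genes kept by filterByExpr (minimum count 10, minimum total 15), with TMM normalization. The use of edgeR, the Benjamini-Hochberg adjustment and the threshold of 0.10 follow the study, and the other settings were chosen here. Each standard error was obtained from the log2 fold change and the root of its F statistic. DESeq2 1.42.0, RLE and upper-quartile normalization, other filters and thresholds, a block for the range of rat numbers and the omission of single rats were the alternatives. The scripts were tested on simulated counts, where 6.59% of the edgeR calls and 19.4% of the DESeq2 calls at the threshold of 0.10 were false. In that simulation, 196 of 12023 genes tested were changed, each by at least 2-fold. The real calls were far more numerous and many were smaller, so these shares do not carry over to them. Log2 CPM used a prior count of 2. The 3-count floor was at most 0.11 CPM and covers counting error alone.

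All 10 members are described. Of each other list, at most the 2 highest and 2 lowest significant genes with at least 1 CPM are named, as are genes of lists with 3 or fewer tested where a result concerns them, and others are stated as chosen afterwards. The members and lists were chosen with earlier results of these data known. Nos2, Cd79a and Derl3 were not analysed here, and some other listed genes are not reported by name. Promoter windows are from RefSeq on GRCr8, an assembly other than the authors'. Coordinates of the counted genes are not given. The labels give a particle and a number, and each number was taken here as a separate rat.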

Additional observations from a re-analysis of the deposited data

Results flagged for a closer look

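Of 66 groups of 4 rats examined, 4 held a rat that stood apart by Dixon's ratio (the distance to its nearest neighbour over the spread of the group, above the 95% critical value), where chance gives 3.3. For Cebpb this was CNT-7 rat 10, with a ratio of 0.907. Its level was 149.5 CPM, and the remaining CNT-7 rats had 102.5 to 106.9 CPM. CNT-7 rat 10 also stood apart for Nfil3, with a ratio of 0.832 and a level of 88.5 CPM, compared with 51.5 to 57.7 CPM. For Cebpd, CNT-T rat 1 was high, with a ratio of 0.884 and a level of 36.9 CPM, compared with 24.3 to 25.7 CPM. For Cd14, CNT-7 rat 5 was low, with a ratio of 0.871 and a level of 244.5 CPM, compared with 282.1 to 287.6 CPM.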

How the results depend on the processing

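No paired analysis was possible because no CNT-7 rat shares a number with a CNT-T rat. Over 16 alternatives, Irf4 and Irf8 kept their direction and significance (adjusted p at most 0.0088 and 0.0034), and Spi1, Runx1 and Zeb2 did so in all but the one that asked for at least a 2-fold change. That requirement left 1 higher lineage factor (Irf4), and 552 higher and 454 lower genes in all. Among 39 tested relatives and other regulators it left 2 higher and 1 lower. Otherwise 8 and 4 were called, or 30.8%, near the 27.9% of all genes, which is no result about them. Among 36 tested targets it left 5 higher and 1 lower (11 and 7 otherwise, or 50%). At an adjusted p-value under 0.05, 4 targets were lower. With rats left out in turn, between 4 and 7 targets were lower, 4 without CNT-7 rat 3 or CNT-T rat 12. Cebpb, which was not significant, changed sign, with log2 fold changes from -0.18 to 0.15 when 1 rat was left out and 0.0037 with the number range as a block. Runx3 lay between -0.066 and 0.26 with 1 rat left out. The difference of the Spi1 to Cebpa log2 ratio, 0.088, lay between -0.011 and 0.15. The cause was not tested, other than that the 2-fold requirement and the lower threshold remove calls by construction. With 4 rats per particle, the upper 95% limits of Cebpb, Cebpd and Runx3 were 0.44, 0.62 and 0.53 on the log2 scale.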

Other observations

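Several lineage factors were high or low together in single rats. CNT-T rat 1 had the highest level of its group for 9 of the 10 factors, all but Zeb2. The median deviation of the 10 genes from the group mean was 0.34 in log2 CPM there, against -0.0070 over all genes tested. Normalization keeps the median over all genes near 0, so it does not show how unusual 0.34 is. The share of all genes for which a rat was highest or lowest of its group was not computed. CNT-7 rat 10 had the highest Spi1, Cebpa, Cebpb, Cebpd, Runx3 and Zeb2 of its group and the lowest Irf4, Irf5 and Irf8. CNT-T rat 13 was lowest for 6 factors and highest for Zeb2. The TMM factors of CNT-T rat 1, CNT-7 rat 10 and CNT-T rat 13 were 0.974, 0.978 and 1.03. The part of normalization in these deviations was not tested.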
